A study of Homo sapiens with 4 samples.

Results

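Surface antigens that carry a number in the cluster of differentiation (CD) scheme were read out at the RNA level in HUT78, a widely used human cell line that was grown out of a cutaneous T-cell lymphoma and derives from a CD4+ T cell. The genes were those whose symbol in the platform's probe-to-gene table consists of CD, a number and at most 1 letter from A to H. Of 59 such symbols, CD69, CD22, CD83 and CD247 were left out, which gave 55 genes of 14884 with a symbol. The pattern reads symbols alone, but it and the 4 omissions were set with earlier results of these arrays known, and CD69 is a gene called higher after CSH71. Each gene was represented by its brightest probe set.

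The experiment asked which transcripts differ after CSH71, a compound that the series presents as a ligand of the lipid-binding domain in the mitogen-activated protein kinase p38γ. There were 2 arrays of untreated HUT78 cells and 2 of HUT78 cells given CSH71 at 250 nM for 30 h, all from cells grown in IMDM medium with serum. Total RNA was labelled by an Affymetrix whole-transcript assay. The model is a single cell line, no vehicle control is named in the labels, and nothing there says whether duplicates came from separate cultures. The p-values therefore rest on the spread among these 4 samples alone, and that spread may be technical. The test, limma, also draws the spread of each gene towards a value shared by all genes. Each SE and interval below is of this kind and is not the replicate spread of that gene alone. No SE was below 0.164, also where replicates lay closer together.

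CD numbers were given to molecules on leukocytes as antibodies against them were collected, so the scheme groups proteins by detection and not by ancestry or function. In a T cell, CD4 or CD8 helps the antigen receptor bind its target. CD2, CD5, CD6, CD7, CD27 and CD28 adjust the strength of the resulting signal. Tetraspanins organise the membrane around such receptors, and other CD antigens mark B cells, monocytes or dendritic cells. The arrays measured RNA of a bulk culture and not protein at the surface, so fewer cells bearing an antigen and less RNA per cell cannot be told apart.

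The deposited values are linear intensities. Array medians over all 53617 probe sets lay between 71.5 and 81.1, and between 135 and 143 over the 14884 genes. An intensity reflects the probe set as well as the amount of RNA, and the table holds no background level or detection call. Levels of different genes are therefore given as a description and not as an order of RNA amounts, and no gene is called absent. The median gene, with a mean intensity of 139 over the 4 arrays, serves as a landmark. Of 7 measured T-cell markers of the 14 listed, 6 were brighter than this landmark, and the 7 summed to 7227 and 7598 on the untreated and 7617 and 7214 on the treated arrays. The adaptor TRAT1, the kinases LCK and ZAP70, the adaptor LAT, CD5 and CD4 were the 6, and CD2 was the exception. The CD3 chains and the constant regions of the receptor were not analysed here. Markers of other cells were summed in the same way. The 3 measured B-cell markers of 7 summed to 314 to 425, the 8 of 8 monocyte markers to 734 to 1013, the 2 of 5 NK-cell markers to 207 to 323, and the 3 of 6 endothelial or stromal markers to 134 to 200. Of these, EBF1 and PAX5, the B-cell transcription factors, CSF1R and MARCO of macrophages and NCR1 of NK cells lay above the median gene. None of the markers stood at 0 on all 4 arrays.

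The CD-numbered genes covered a wide range of intensity, and bright and dim genes occurred side by side in most role groups. Of the 55, 21 were brighter than the median gene and 10 had a mean above 1000, a level that 12.03% of all genes passed. The 10 were CD96, CD70, CD52, CD5, CD99, CD44, CD63, CD38, CD53 and CD47, in the order of their intensity. At the other end, 11 genes had means of 50 or less, the dimmest being CD1B at 18.4, CD24 at 21.0 and CD180 at 23.7. The pattern was alike on all arrays: 20 genes lay above the array's median gene on all 4 arrays and 30 on none. CD80, CD300E, CD8A and CD27 lay above it on 1 array each and CD81 on 2. Across the 55 genes, Pearson's r between log2 values of any pair of arrays was 0.982 to 0.990, which describes probe sets shared by all arrays and is not a test.

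**Figure D1:**
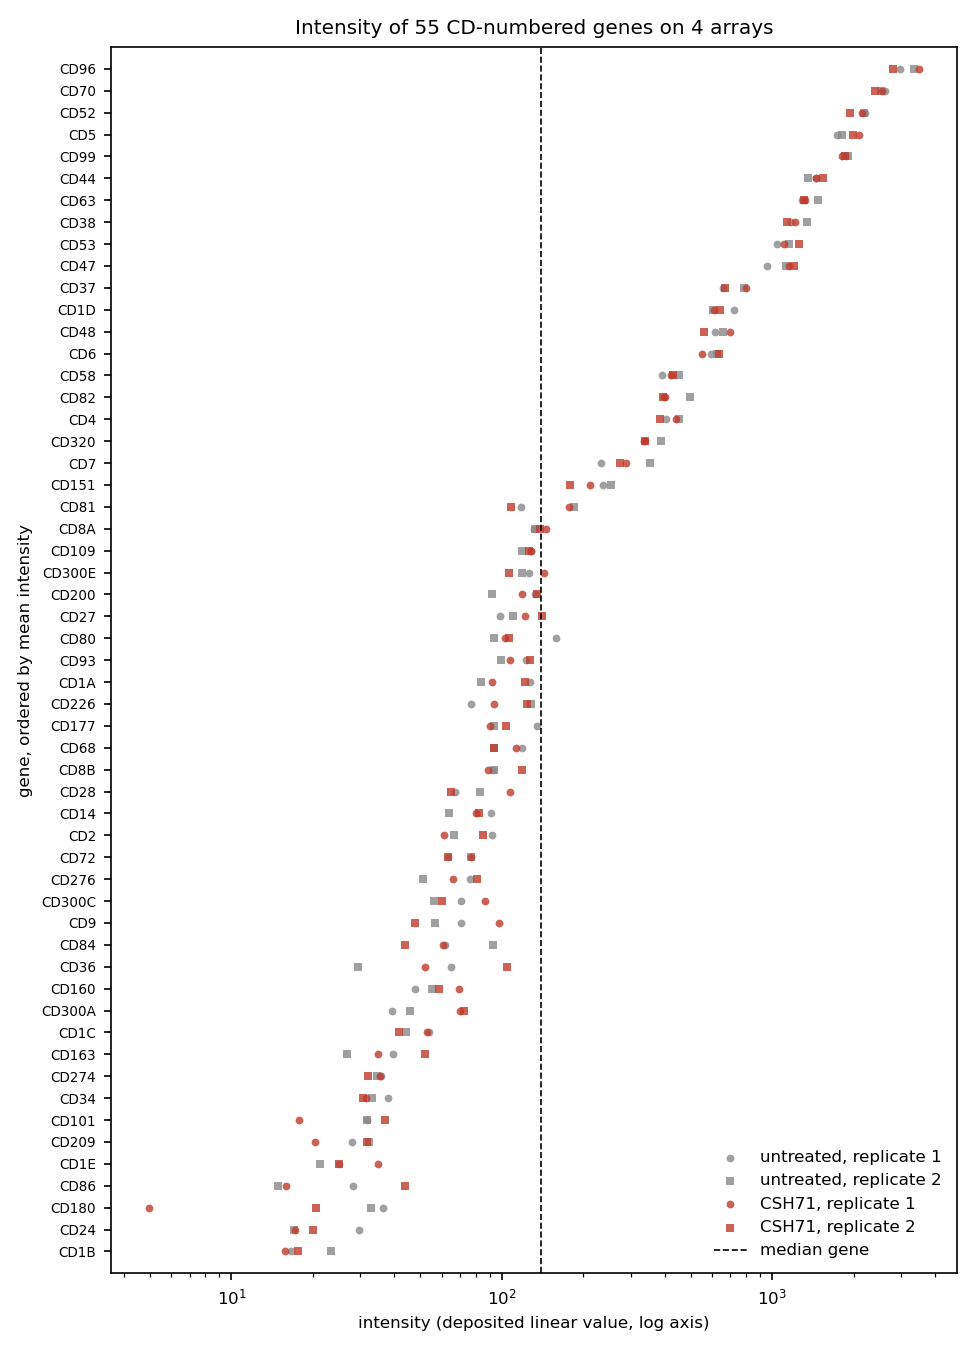
Intensity of each of the 55 CD-numbered genes (rows, ordered by mean intensity) on a log axis, with untreated arrays in grey and CSH71 arrays in red, circles for replicate 1 and squares for replicate 2. The dashed line is the median gene at 139, and the 4 points of a gene lie closer together among the 21 bright genes than among the 34 dim ones.

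The promoters of bright genes were of differing kinds, and the windows of 3 of them are shown to make this visible. RefSeq promoter windows (GRCh38.p14, 250 bases before to 50 after the annotated start) were matched by gene identifier for 40 of the 55 genes. In the following 3 windows, written 5′ to 3′ on the gene's own strand, capitals mark CG dinucleotides, the sites of DNA methylation in vertebrates. CD96 lies at chr3:111541947-111542246 on the plus strand, CD52 at chr1:26317708-26318007 on the plus strand and CD47 at chr3:108090982-108091281 on the minus strand.
CD96: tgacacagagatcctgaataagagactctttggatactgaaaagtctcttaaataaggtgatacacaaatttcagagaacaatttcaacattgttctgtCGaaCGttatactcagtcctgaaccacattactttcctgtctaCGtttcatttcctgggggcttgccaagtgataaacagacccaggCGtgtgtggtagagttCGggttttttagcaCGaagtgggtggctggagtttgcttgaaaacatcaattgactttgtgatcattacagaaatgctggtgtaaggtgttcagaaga
CD52: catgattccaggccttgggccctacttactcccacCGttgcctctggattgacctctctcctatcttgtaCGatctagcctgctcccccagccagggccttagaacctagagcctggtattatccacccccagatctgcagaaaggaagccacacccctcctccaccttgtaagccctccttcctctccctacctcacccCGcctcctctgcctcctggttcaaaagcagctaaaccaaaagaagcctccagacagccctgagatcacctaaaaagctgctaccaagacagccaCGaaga
CD47: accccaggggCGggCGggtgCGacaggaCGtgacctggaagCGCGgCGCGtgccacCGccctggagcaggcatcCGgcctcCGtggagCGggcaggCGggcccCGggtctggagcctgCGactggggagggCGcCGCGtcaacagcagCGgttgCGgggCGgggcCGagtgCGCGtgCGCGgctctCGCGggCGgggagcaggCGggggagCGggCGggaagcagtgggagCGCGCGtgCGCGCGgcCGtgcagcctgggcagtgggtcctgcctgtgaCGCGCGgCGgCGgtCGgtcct

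CD96 and CD52, the brightest and the third brightest of the 55, had 6 and 4 CG dinucleotides, whereas CD47 had 45. Over the 40 genes the median count was 6.5, against 23 over the 10749 genes with a window. Among bright genes the medians were 18 for the 13 CD-numbered genes and 26 for all 6040, and among dim genes 6 for 27 and 14 for 4709. Fewer than 10 CG dinucleotides were found in 62.5% of the 40 windows and in 24.8% of all. Bright genes with few of them were CD1D, CD53, CD52, CD38, CD48 and CD96. CD276, with 37, was the dim gene with the highest count. These counts describe sequence alone, and methylation was not measured.

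**Figure D2:**
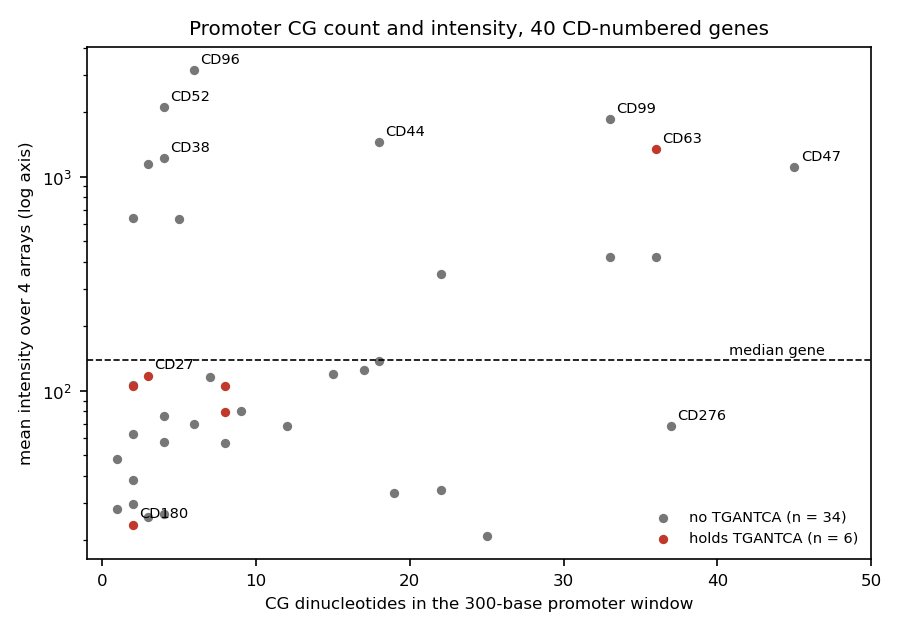
Number of CG dinucleotides in the 300-base promoter window (x axis) against mean intensity over 4 arrays (y axis, log scale) for the 40 CD-numbered genes with a RefSeq window; red points hold the motif TGANTCA. Bright genes stand at both ends of the x axis, with CD96 and CD52 at 6 and 4 and CD47 at 45.

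None of the CD-numbered genes was called between CSH71 and untreated arrays. Calls were so rare among all genes that this does not set the 55 apart. Of 55 genes, 0 rose and 0 fell at a limma adjusted p under 0.05, where 7 of 14884 genes, or 0.047%, were called. Of all 59 symbols of the pattern, CD69 alone was called. Over all genes the calls were split into 0.0403% higher and 0.00672% lower. At an unadjusted limma p under 0.05 there were 2, CD300A with a positive and CD180 with a negative difference, or 3.64% against 5.1% of all genes (3.2% higher and 1.9% lower). The differences, on the scale of log2(intensity + 16), ran from -0.87 to 0.58 with a median of -0.02, beside -0.01 over all genes. Positive and negative differences numbered 27 and 28. Both treated arrays lay above both untreated ones for 6 genes and below them for 7, beside 15% and 16.6% of all genes, and in 42 the groups overlapped. The 13 without overlap are 23.6% of the 55, where 31.6% of all genes showed no overlap.

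The 95% intervals describe the precision of each difference under the fitted model. Its shared spread took no account of brightness, although replicates of dim genes lay further apart than those of bright ones. Since the spread between duplicates may be technical, the intervals do not bound a difference between separate cultures. For 52 of 55 genes the 95% interval of the difference lay inside a 2-fold change in either direction, as it did for 93.7% of all genes. The exceptions were CD180, CD36 and CD86, all dim. Among the 21 bright genes all 21 intervals lay inside 2-fold and 16 inside 1.5-fold, and the 5 others were CD151, CD47, CD5, CD81 and CD82. The added constant of 16 shrinks differences of dim genes, and a dim value may hold much that is not the gene's own signal. For the 34 dim genes the interval thus concerns the measured value and not the RNA.

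**Figure D3:**
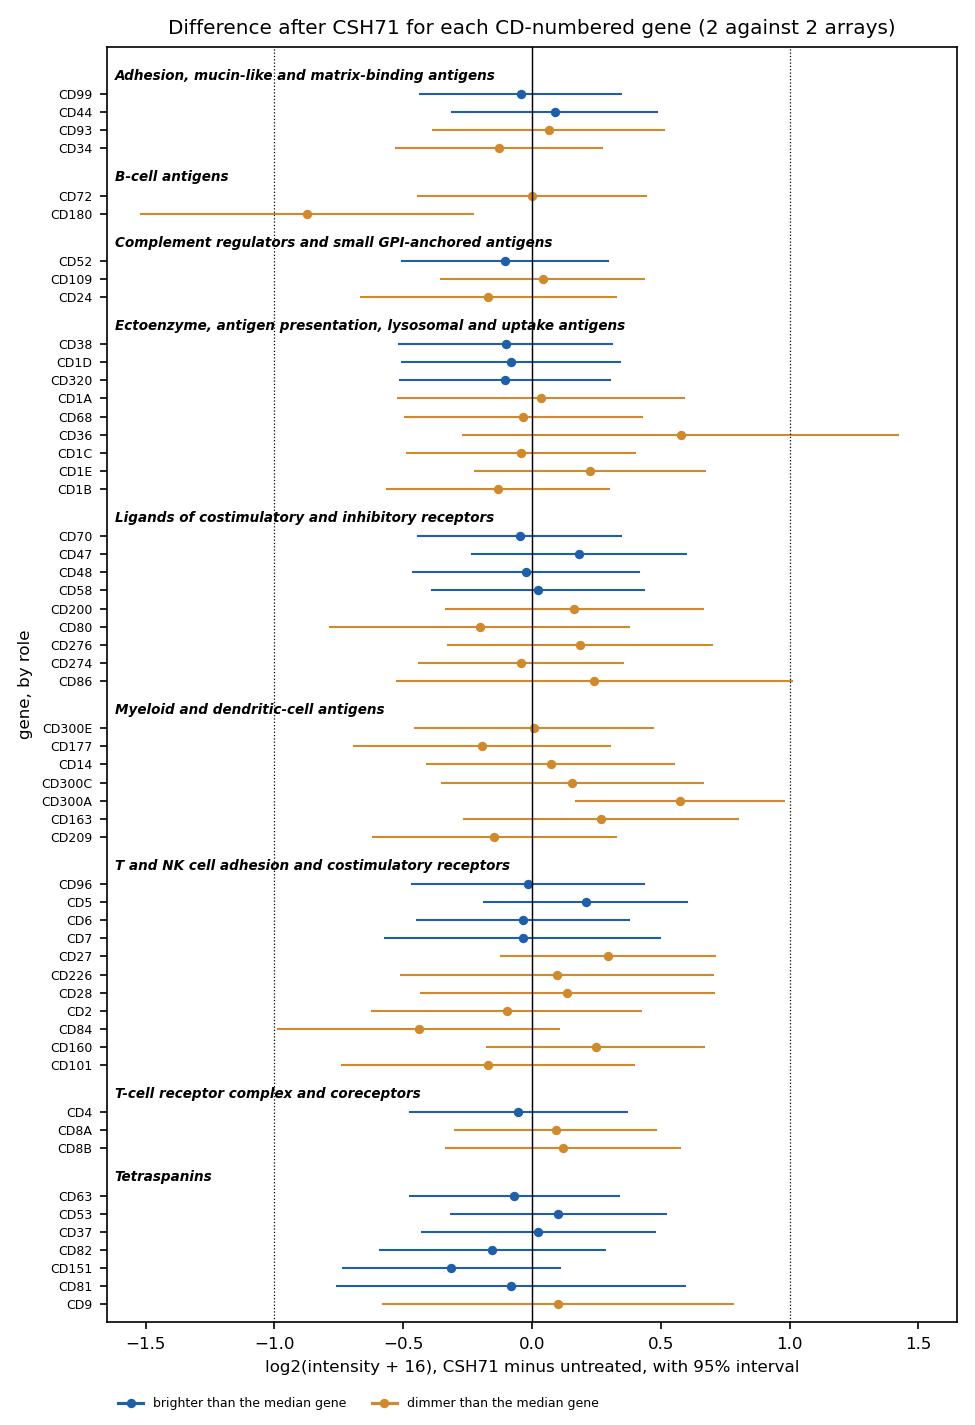
Difference between CSH71 and untreated arrays in log2(intensity + 16) (x axis) for each of the 55 genes, grouped by role, with 95% intervals from limma; blue genes are brighter and orange genes dimmer than the median gene. Dotted lines mark 2-fold changes, and the intervals of CD180, CD36 and CD86 reach past them.

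Among the coreceptors of the antigen receptor, CD4 was the bright one. Its intensity was 403 and 452 on the untreated arrays and 441 and 384 on the treated arrays, so the groups overlapped and the log2 difference was -0.05 ± 0.18 (SE). CD8A, one chain of the coreceptor of cytotoxic T cells, stood near the median gene at 131 and 133 untreated and 145 and 138 treated. Its difference of 0.09 ± 0.17 was small although both treated arrays were higher. CD8B, the partner chain, had 92.8 and 93.9 untreated and 88.8 and 119 treated, a difference of 0.12 ± 0.19. The 2 chains are neighbours in the genome and both were dim here, and the 3 genes gave limma adjusted p-values of 0.999.

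Of 11 adhesion and costimulatory receptors of T and NK cells, 4 were bright: CD96, CD5, CD6 and CD7. CD96, a receptor of nectin-like ligands, was the brightest of all 55 at 2975 and 3334 untreated and 3472 and 2789 treated, with a difference of -0.02 ± 0.19. Its treated arrays spanned the untreated ones. CD5, a scavenger-receptor-type protein that restrains antigen receptor signalling, had 1729 and 1802 untreated and 2100 and 1986 treated. Both treated arrays were higher, and the difference of 0.21 ± 0.17 missed the threshold (limma adjusted p = 0.999, 95% interval -0.19 to 0.60). CD6, a relative and genomic neighbour of CD5 that binds the adhesion molecule ALCAM, had 591 and 622 untreated and 551 and 633 treated. CD7, an immunoglobulin-type receptor that Sézary cells often lack, varied between the untreated arrays, at 233 and 354, with 287 and 273 treated.

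The other 7 receptors were dim. CD2, the receptor of CD58, had 91.6 and 66.8 untreated and 60.9 and 85.1 treated. CD28, which supplies the second signal of T-cell activation, had 67.2 and 83.0 untreated and 107 and 65.0 treated. CD226, an activating receptor that shares a ligand with CD96, had a mean of 106. CD27, the receptor of CD70, had 98.1 and 110 untreated and 122 and 141 treated, with both treated arrays higher and a difference of 0.30 ± 0.18. CD160, a receptor of the TNF receptor family member HVEM, was likewise higher on both treated arrays, at 69.4 and 58.7 against 47.8 and 55.1 (0.25 ± 0.18). CD84, a self-binding receptor of the SLAM family, was lower on both, at 60.8 and 44.0 against 61.9 and 92.9 (-0.44 ± 0.23). The nearest arrays of the CD84 groups differed by little, and no receptor of the 11 reached an unadjusted p under 0.05. CD101, an immunoglobulin-type inhibitory receptor, was the dimmest with a mean of 29.5.

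Ligands of such receptors likewise held bright and dim genes, with CD70, CD47, CD48 and CD58 bright among 9. CD70, the TNF family ligand of CD27, was steady at 2604 and 2519 untreated and 2550 and 2406 treated (difference -0.05 ± 0.17). CD47, which binds SIRPα on macrophages and restrains engulfment, had 960 and 1122 untreated and 1155 and 1206 treated. Both treated arrays were higher, by 0.18 ± 0.18 in the mean, an interval of -0.23 to 0.60. CD48, a SLAM family ligand, had 612 and 659 untreated and 696 and 561 treated. CD58, the ligand of CD2, had means of 420 ± 44.0 and 426 ± 6.24 (SD, n = 2 arrays per group) and a difference of 0.02. Of their receptors, CD27 and CD2 lay below the median gene, and CD28 did so together with its ligands CD80 and CD86, which sets no order of RNA amounts between partners.

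The 5 dim ligands showed no shift beyond replicate spread. CD80 had 159 and 93.9 untreated and 103 and 106 treated, so its difference of -0.20 ± 0.24 rested on 1 untreated array. CD276, also called B7-H3, had 76.0 and 50.9 untreated and 66.0 and 81.1 treated (0.19 ± 0.22). CD274, which encodes PD-L1, was dim and steady with means of 35.2 ± 0.870 and 33.7 ± 2.50 (SD, n = 2 arrays per group). CD200, a ligand that quiets myeloid cells, had a mean of 119, and CD86 a mean of 25.7 with an interval from -0.52 to 1.01.

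Tetraspanins, membrane organisers with 4 spans, were the group with the largest bright share, 6 of 7, beside 50% of all genes by definition. CD63, found on late endosomes, had 1291 and 1471 untreated and 1320 and 1308 treated. CD53, a leukocyte tetraspanin, had 1044 and 1156 untreated and 1107 and 1260 treated, a difference of 0.10 ± 0.18. CD37, another leukocyte tetraspanin, had 655 and 787 untreated and 799 and 669 treated. CD82 had 397 and 495 untreated and 400 and 393 treated, where 1 untreated array set the difference of -0.15 ± 0.18. CD151, a partner of laminin-binding integrins, had the largest difference of any bright gene. It was lower on both treated arrays, at 212 and 178 against 237 and 254, a difference of -0.31 ± 0.18 (95% interval -0.73 to 0.11, limma adjusted p = 0.999). CD81, a component of the B-cell coreceptor complex, had similar group means of 151 and 142 but replicates far apart, at 117 and 185 untreated and 176 and 108 treated. CD9, the dim tetraspanin, had a mean of 68.1.

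Among GPI-anchored antigens, CD52 was bright and steady. CD52, a short glycopeptide and the target of the antibody alemtuzumab, had 2207 and 2189 untreated and 2150 and 1940 treated. Both treated values were lower, and the difference was -0.11 ± 0.17. CD109, which binds TGF-β, had 128 and 118 untreated and 128 and 126 treated. Its other probe set was dimmer, with a mean of 62.2, and gave a difference of 0.44 where the brighter one gave 0.04. CD24, a mucin-like antigen, had 29.7 and 17.1 untreated and 17.2 and 19.98 treated. The complement regulators CD46, CD55 and CD59 were not analysed here.

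In the adhesion group, CD99 and CD44 were bright and CD93 and CD34 dim. CD99, a T-cell and endothelial adhesion molecule, had 1875 and 1907 untreated and 1810 and 1860 treated and a difference of -0.04 ± 0.16. Its 4 arrays lay close together, with both treated ones lower. CD44, the hyaluronan receptor, had 1450 and 1358 untreated and 1448 and 1541 treated (0.09 ± 0.17). CD93, an endothelial and myeloid antigen, had 123 and 99.6 untreated and 107 and 127 treated. CD34, a marker of blood stem cells and endothelium, had 38.0 and 33.1 untreated and 31.4 and 30.7 treated.

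Among genes of ectoenzymes, lipid presentation, lysosomes and uptake, CD38, CD1D and CD320 were bright. CD38, an enzyme that consumes NAD, had 1176 and 1346 untreated and 1213 and 1131 treated (-0.10 ± 0.17). CD1D presents lipids to NKT cells and had 722 and 604 untreated and 609 and 638 treated. It was the bright one of the CD1 family. The 5 CD1 genes stand next to each other in the genome with 0 protein-coding genes between neighbours, yet CD1A, CD1B, CD1C and CD1E had means of 106, 18.4, 48.2 and 26.6. CD1E had 25.04 and 21.3 untreated and 34.9 and 25 treated. CD320, the receptor for vitamin B12 bound to transcobalamin, had 339 and 388 untreated and 336 and 337 treated. CD36, a fatty acid and lipoprotein receptor, had the largest positive difference of the 55, at 0.58 ± 0.36. Its arrays were widely spread, at 64.9 and 29.4 untreated and 51.9 and 105 treated, and the groups overlapped. CD68, a lysosomal antigen of macrophages, had a mean of 105 and a difference of -0.03.

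The measured antigens of B cells (2 of 5 listed) and of myeloid cells (7 of 10 listed) were dim, with 0 of the 9 brighter than the median gene, although CD22, a B-cell antigen outside the 55, had a mean of 235. These 9 held both genes with an unadjusted p under 0.05. CD300A, an inhibitory receptor of myeloid and lymphoid cells, had 39.4 and 45.6 untreated and 69.7 and 72.3 treated. The groups did not overlap, the difference was 0.57 ± 0.17, and the limma adjusted p was 0.928. The difference ran from 0.50 to 0.65 when 1 array was left out. With an intensity trend in the prior, the unadjusted limma p of CD300A was no longer under 0.05. CD180, a Toll-like receptor relative on B cells, had 36.4 and 32.8 untreated and 4.97 and 20.5 treated. The difference of -0.87 ± 0.27 had the same adjusted p of 0.928 and drew much of its size from the value of 4.97 on treated replicate 1. Without that array the difference was -0.47 (limma adjusted p = 0.957). CD72, an inhibitory B-cell receptor, had 63.4 and 76.7 untreated and 77.2 and 63.1 treated, a difference of 0.00 ± 0.19.

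Of the other myeloid antigens, CD14, the coreceptor for bacterial lipopolysaccharide, had 91.5 and 63.5 untreated and 80.1 and 82.3 treated. CD163, the scavenger receptor for haemoglobin, had 39.5 and 26.7 untreated and 34.7 and 51.9 treated (0.27 ± 0.22). CD177, a neutrophil antigen, had 134 and 93.9 untreated and 90.1 and 103 treated, and its other probe set gave -0.05 where this one gave -0.19. CD300E, an activating relative of CD300A, had 126 and 119 untreated and 143 and 106 treated. CD300C and the lectin CD209 had means of 68.3 and 28.1 and overlapping groups.

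**Figure D4:**
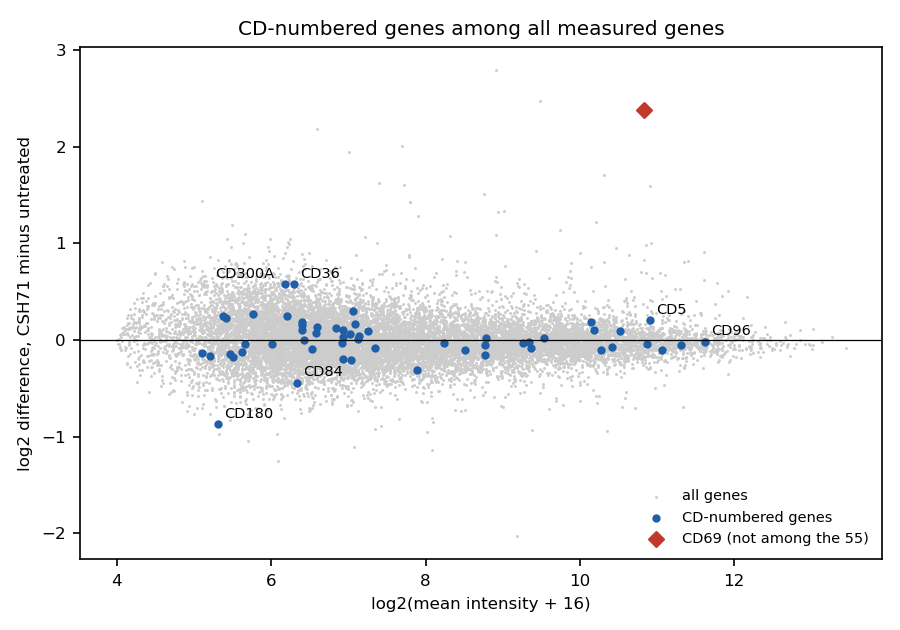
Log2 difference between CSH71 and untreated arrays (y axis) against log2(mean intensity + 16) (x axis) for all 14884 genes in grey and the 55 CD-numbered genes in blue. The 55 lie within the cloud, from -0.87 for CD180 to 0.58 for CD36, while CD69, in red and outside the 55, stands at 2.37.

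The promoter motif of AP-1, the transcription factor formed by JUN and FOS family proteins, was searched in a loose form, TGANTCA, on both strands, which read alike. Here N stands for any base, and all matches were counted alike. This loose form was present in 6 of the 40 windows, or 15%, and in 5.92% of the 10749. The windows of CD63, CD27 and CD180 are shown because these genes had little, a positive and a negative difference. Capitals mark the motif, which begins 129, 236 and 124 bases before the annotated start. Its middle base was C in CD63, A in CD27 and T in CD180. CD63 lies at chr12:55728960-55729259 on the minus strand, CD27 at chr12:6443642-6443941 on the plus strand and CD180 at chr5:67196750-67197049 on the minus strand.
CD63: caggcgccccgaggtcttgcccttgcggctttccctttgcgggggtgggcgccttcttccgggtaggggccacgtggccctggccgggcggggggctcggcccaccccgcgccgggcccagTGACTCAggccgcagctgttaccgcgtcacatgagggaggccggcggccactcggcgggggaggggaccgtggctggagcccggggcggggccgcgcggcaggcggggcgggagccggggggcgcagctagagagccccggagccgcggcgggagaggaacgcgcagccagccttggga
CD27: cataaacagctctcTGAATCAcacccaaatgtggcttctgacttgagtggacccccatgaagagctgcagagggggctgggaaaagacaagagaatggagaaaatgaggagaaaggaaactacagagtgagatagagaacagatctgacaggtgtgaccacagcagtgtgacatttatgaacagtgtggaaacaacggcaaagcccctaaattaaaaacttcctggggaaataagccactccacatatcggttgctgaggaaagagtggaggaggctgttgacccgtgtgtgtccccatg
CD180: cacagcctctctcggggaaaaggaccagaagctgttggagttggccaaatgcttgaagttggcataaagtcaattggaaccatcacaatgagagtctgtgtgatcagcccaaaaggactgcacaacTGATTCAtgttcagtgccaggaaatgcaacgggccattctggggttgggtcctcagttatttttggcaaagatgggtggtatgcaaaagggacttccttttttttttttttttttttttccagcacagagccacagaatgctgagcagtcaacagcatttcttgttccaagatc

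The differences of these 3 genes were -0.07, 0.30 and -0.87. The genes were picked to differ in this, so their directions say nothing about the motif. CD14, CD68 and CD226 were the others with the motif, at 0.07, -0.03 and 0.10. A match in such a window describes letters and is neither a binding site nor a cause.

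Spread between replicates followed brightness. Dim genes had a median absolute log2 difference of 0.26 between the untreated and 0.25 between the treated arrays, against 0.16 and 0.09 for bright ones. It also had a direction. Among the 34 dim genes, 23 were brighter on untreated replicate 1 than on replicate 2, and 20 were brighter on treated replicate 2 than on replicate 1. Among the 21 bright genes 4 and 8 were. Over all genes, the shares were 60.4% and 61.0% of the dim and 24.8% and 32.9% of the bright genes. The lower quartile of the arrays moved likewise, at 59.5 and 54.4 on the untreated and 55.2 and 62.2 on the treated arrays. CD163, CD36 and CD1A were dim genes with this pattern, and CD96, CD48, CD37 and CD81 bright ones with the opposite. The part of these array-wide shifts in single differences was not tested.

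**Figure D5:**
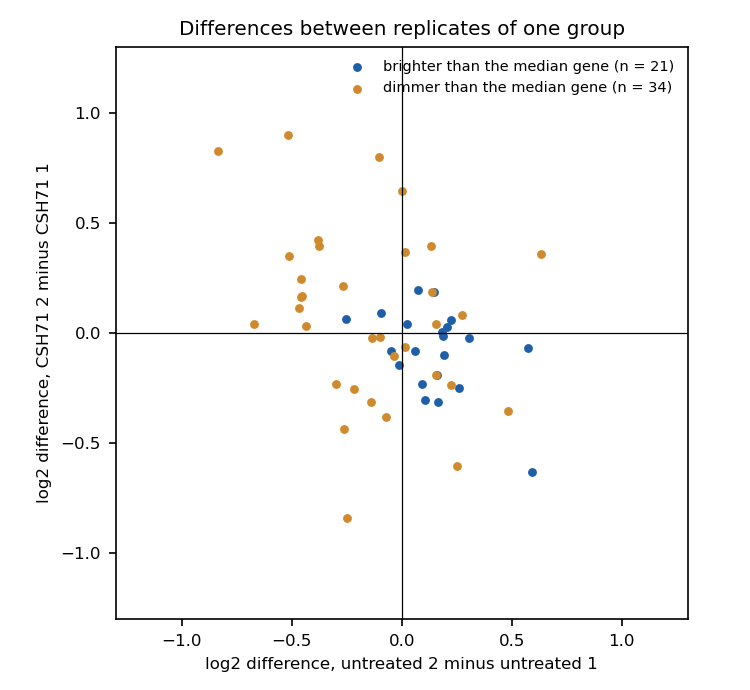
Log2 difference between the 2 untreated arrays (x axis) and between the 2 CSH71 arrays (y axis) for the 55 genes, in blue if brighter and orange if dimmer than the median gene. Of the 34 dim genes 14 lie in the upper left quadrant, and of the 21 bright genes 11 lie in the lower right.

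The sign of the differences was uneven by brightness, with 15 of 21 bright genes negative and 21 of 34 dim genes positive. Over all genes 42.3% of the bright and 53.6% of the dim were positive. The split remained 14 negative of 21 bright genes with median centring and 13 with quantile normalization. It turned to 7 negative of 21 bright and 21 negative of 34 dim genes when untreated replicate 2 was left out, and it was nearly even, at 11 negative of 21 bright genes and 15 negative of 34 dim genes, without CSH71 replicate 2. Without CSH71 replicate 1 it remained, with 15 of 21 bright genes negative and 19 of 34 dim genes positive. Without untreated replicate 1 these counts were 16 and 25. The split therefore varied with the array that was left out.

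Antigens that have a CD number but another symbol were read from a separate list, since they complete the surface of the same cells. Of 57 listed, 28 were measured, 17 were brighter than the median gene, and 0 rose or fell at a limma adjusted p under 0.05, beside 0.047% of all genes. IL7R, ANPEP, LY9 and CCR7 had an unadjusted limma p under 0.05, which makes 4 of 28, beside 5.1% of all genes. The list was drawn up with earlier results of these data known, so its shares beside those of all genes are not a test. IL7R, the interleukin 7 receptor chain, had 1241 and 1427 untreated and 2340 and 2032 treated (0.71 ± 0.18, limma adjusted p = 0.928). ANPEP, an aminopeptidase of myeloid cells, had 129 and 97.5 untreated and 160 and 225 treated (0.68 ± 0.23). LY9, a SLAM family receptor, was dim at 36.7 and 23.7 untreated and 43.6 and 62.5 treated (0.58 ± 0.22). ENTPD1, an ectonucleotidase, had 923 and 923 untreated and 1205 and 1033 treated.

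In the other direction, the lymph node homing receptor CCR7 had 2430 and 2576 untreated and 1896 and 1722 treated (-0.47 ± 0.17, limma adjusted p = 0.930). SELPLG, the P-selectin ligand, had 2394 and 2557 untreated and 1979 and 1871 treated. CCR4, a skin homing receptor, had 4249 and 4396 untreated and 3501 and 3283 treated. ICOS, a relative of CD28, had 1094 and 1153 untreated and 885 and 886 treated. These 4 were picked for the smallest p in this direction, a choice that favours genes lower on both treated arrays, as each was. In the whole list 8 of 28 genes were lower on both treated arrays, 4 were higher on both and 16 overlapped, beside 16.6% lower and 15% higher on both among all genes. The list had a median of -0.08, with 12 positive and 16 negative differences.

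Of the 4 symbols left out of the 55, CD69 was called, with 541 and 612 untreated and 3016 and 3077 treated. CD83, CD247 and CD22 were not called, at -0.32, -0.30 and -0.09.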

How the data were processed

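Gene expression was measured on 4 Affymetrix arrays of HUT78 cells, 2 untreated and 2 treated with CSH71. The deposited values are linear intensities, 1 for each of 53617 probe sets, and Affymetrix Expression Console is named as the software per the submitters' processing notes. No source used here gives its version, the summarisation, the background correction or any normalization. Groups and replicate numbers came from sample titles. Of the probe sets, 16098 had 1 symbol in the platform table, 0 had several and 37519 had none, and all 16098 entrez identifiers matched RefSeq (GRCh38.p14), with 0 symbols changed. Of the 55 genes, 2 had several probe sets (CD109 and CD177). The probe set with the highest mean was used for each gene.

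Values were taken as log2(intensity + 16) without further normalization. Groups were compared with limma 3.58.1 (R 4.3.3) over 14884 genes, with 2-sided p-values adjusted by Benjamini-Hochberg and a threshold of 0.05. The design had foreseen this test, which was checked on simulated data. The simulated noise was unrelated to brightness and held no array-wide shifts, unlike the arrays here, so the check does not cover these features. The genes, lists, constant and tests were chosen with earlier results of these data known. Values per array are given, in each role list, for the 3 brightest genes and the 2 with the smallest p, over all 55 for the 6 smallest p in each direction, and for other-symbol antigens for 4 in each direction. Further genes were named with their level, and some with values per array, after their values were seen. Alternatives were the constants 1 and 64, quantile normalization, median centring, removal of the dimmest 40% of genes, an intensity trend or a robust prior, the replicate number as a block, averaged probe sets, and leaving out single arrays in turn. The number of arrays limits the precision. Figures were drawn with matplotlib 3.10.9.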

Additional observations from a re-analysis of the deposited data

How the results depend on the processing

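None of the 55 CD-numbered genes was called by limma under any of the 14 alternatives. With all 4 arrays kept, the lowest limma adjusted p was 0.211, for CD180 with an intensity trend in the prior. Without CSH71 replicate 2 the difference of CD180 was -1.27, which rests on the single treated value of 4.97. The alternatives gave 1 to 4 of the 55 an unadjusted p under 0.05, except that 0 of 33 tested had one without the dimmest 40% of genes. For 20 genes the sign held in all alternatives that tested them, and for 35 it changed in at least 1. The intensity trend, the robust prior and the replicate blocks leave a difference unchanged by design, so these could not change a sign. Averaged probe sets could alter CD109 and CD177 alone. The number of calls over all genes was 7 and became 0 with a constant of 1 (768 at an unadjusted p under 0.05) or quantile normalization (964), 33 with a constant of 64, 27 with median centring, 143 with an intensity trend in the prior and 11 without the dimmest 40% of genes, and ran from 0 to 29 when 1 array was left out (0 without untreated replicate 1 or 2, 29 and 20 without CSH71 replicate 1 and 2). The cause was not tested. The median difference of the 55 was -0.02 and took the other sign with median centring (0.0033) or quantile normalization (0.0049), and it ran from -0.06 to 0.03 when 1 array was left out. The number brighter than the median gene was 21, and 22 when the probe sets of a gene were averaged.

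The labels give same-numbered arrays a shared number and say nothing more of a pairing. Their deviations from the group means had a correlation of -0.29 over genes, and 0.29 with the numbers crossed. With 2 arrays per group the deviations mirror each other, so this value cannot tell whether arrays were paired. With the replicate number as a block, 27 genes and 0 of the 55 were called. A crossed block, added after seeing the data, gave 0 limma calls in all (unadjusted p under 0.05 for 1288 genes) and 0 among the 55.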
